A study of Sus scrofa with 32 samples.

Results

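Calponin and the actin cytoskeleton genes of smooth muscle were followed through 2 pig breeds and 2 muscles. The set held 7 genes chosen by name, of 25322 gene IDs measured: CNN1 (ENSSSCG00000013614), TAGLN (ENSSSCG00000015073), CALD1 (ENSSSCG00000016535), SMTN (ENSSSCG00000010017), ACTA2 (ENSSSCG00000010447), ACTG2 (ENSSSCG00000008294) and LIMK1 (ENSSSCG00000030378). All 7 passed the filter on low counts in both muscles. CNN1 and LIMK1 were already named by the study as differing between the breeds, on these same pigs, so their breed differences are not independent evidence.

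RNA was sequenced from the longissimus dorsi (LD), the long muscle of the back, and the semimembranosus (S), a muscle of the ham. The pigs were 8 Pulawska (PUL) and 8 Polish Landrace (PL) gilts, kept on one station with the same housing and feed. The labels give an age of 180 days for all of them. The study's methods instead describe feeding to a common slaughter weight, and it reports faster daily gain in PL and treats age at slaughter as a trait that varied. The true age may therefore differ between the breeds, and its part cannot be told apart from that of breed. Ages of single pigs were not used here. Every gilt gave both muscles, so there were 4 groups of 8 libraries, 32 in all. PUL is a local Polish breed and PL a commercial meat breed, and no other treatment separated the groups. The labels also put PUL in a high and PL in a low shear force class, a direction opposite to the meat texture the study describes, so the class was not used, and breed and class could not be told apart in any case. Each library was made from a whole piece of muscle, which holds fibres, vessels, fibroblasts and blood. In such bulk samples, fewer cells of a type and less RNA per cell cannot be told apart.

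Smooth muscle cells contract with thin filaments of their own actins, ACTA2 and ACTG2, which carry calponin (CNN1), transgelin (TAGLN), caldesmon (CALD1) and smoothelin (SMTN). In skeletal muscle such cells lie mainly in the walls of blood vessels, together with pericytes, and many of these genes are switched on by serum response factor and by TGF-beta signalling. LIMK1 is a kinase that phosphorylates cofilin and thereby slows the disassembly of actin filaments, and it is found in many cell types.

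The libraries held between 8821273 and 24761853 estimated counts, and the median library of a group between 14677994 and 16146381. ACTA1, the actin of skeletal fibres, lay at 29680 to 152680 CPM (counts scaled to library size) in LD and S together. This marks the tissue as skeletal muscle but does not tell LD from S. Of the 15 markers of mural cells (vascular smooth muscle and pericytes) listed for the vessel wall, 11 had an ID and 8 were high enough to test, but the IDs of MYH11 and MYLK reached at most 20 counts in any library and that of KCNMB1 at most 2. With ACTA2 and TAGLN well detected in the same libraries, these IDs may be incomplete gene models, which was not tested. Liver-type transcripts stood apart in some PUL libraries: the 10 hepatocyte markers with an ID summed to 23.3 to 1267 CPM in S of PUL against 10.5 to 34.5 CPM in S of PL. PUL pigs 1 to 5 were therefore also left out as a check, which kept only PUL pigs 13, 16 and 17.

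By value, CNN1 transcript levels were higher in PL than in PUL, by 2.60-fold in LD and 1.63-fold in S, and LIMK1 levels were lower in PL, by 1.79-fold in LD and 2.38-fold in S. ACTA2, TAGLN and SMTN differed by at most 1.22-fold in LD and 1.10-fold in S. None of these differences passed the test across all genes. In the quasi-likelihood test of edgeR, a call required a Benjamini-Hochberg adjusted p of at most 0.05 and a change of at least 1.3-fold, and 0% of the 10792 genes tested in LD and 0% of the 10687 tested in S met them. At an unadjusted p under 0.05 there were 772 genes in LD (7.15%) and 1252 in S (11.7%). Among the 7 genes, CNN1 and ACTG2 lay under that p in LD, and CNN1 and LIMK1 in S. The median log2 fold change of the 7 genes, PL over PUL, was 0.28 in LD and 0.14 in S, beside 0.0052 and 0.021 over all genes tested.

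**Figure D1:**
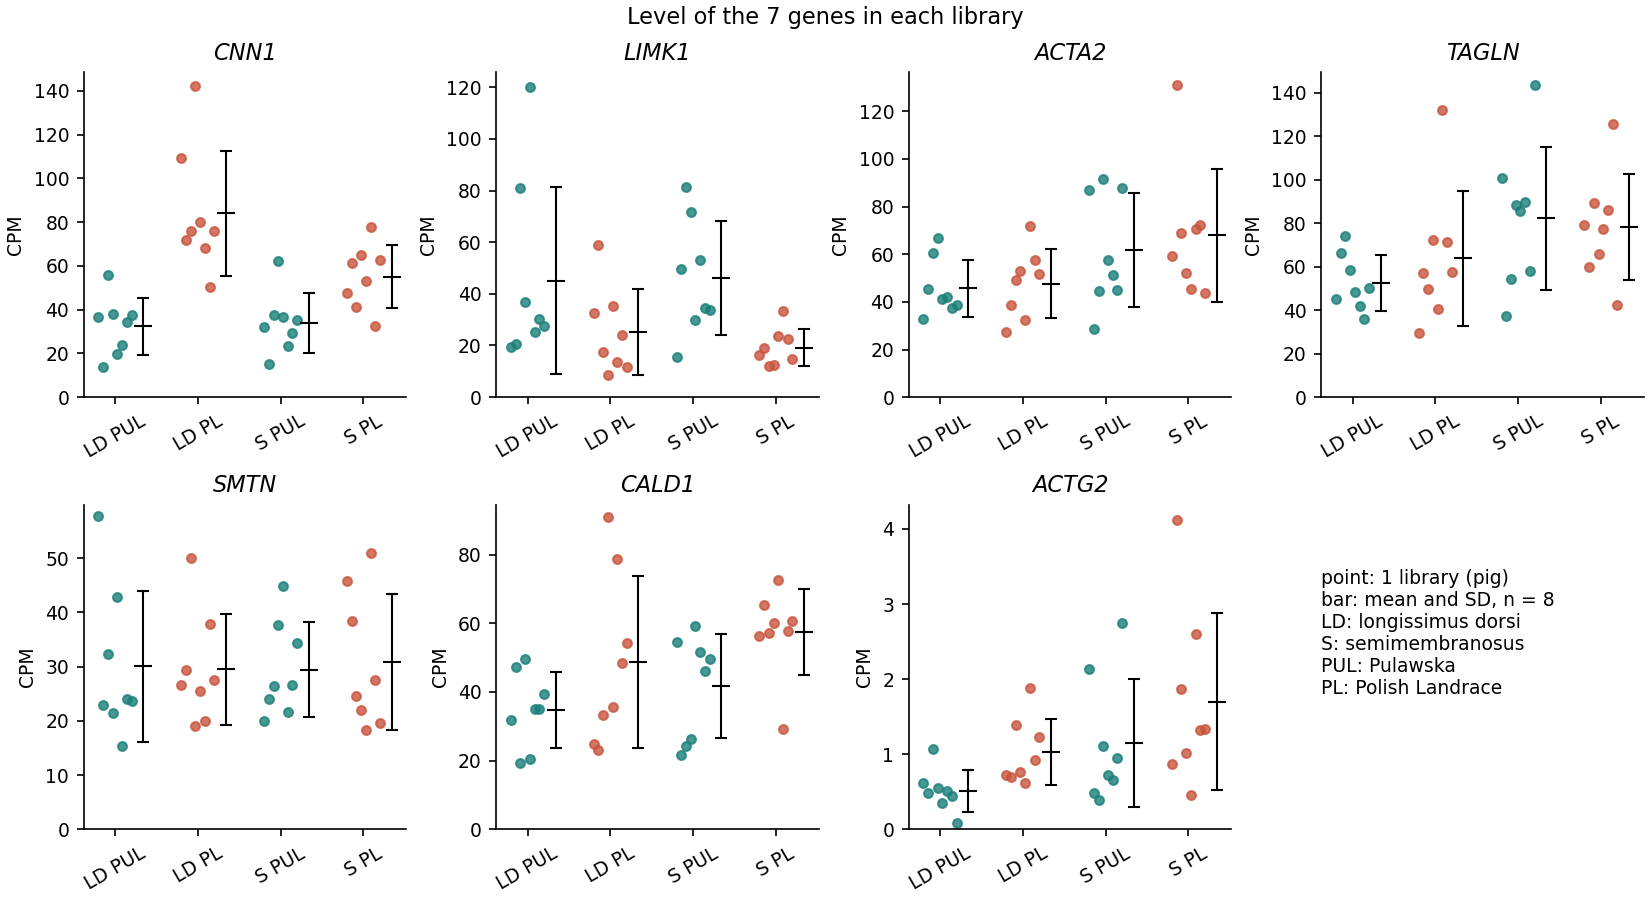
Transcript level in CPM (linear axis, from 0) of each of the 7 genes in each of the 32 libraries, with points for pigs and black bars for the mean and SD of 8 pigs. CNN1 is the gene whose PL points in LD, 50.2 to 142.1 CPM, sit almost wholly above the PUL points, 13.99 to 55.7 CPM, and LIMK1 shows the opposite order in S.

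CNN1 encodes calponin 1, which binds actin and inhibits the ATPase of myosin. In LD of PUL its level ran from 13.99 CPM in pig 2 over a median of 35.4 to 55.7 CPM in pig 3, and in LD of PL from 50.2 CPM in pig 15 over a median of 75.9 to 142.1 CPM in pig 10. The groups overlapped through a single PL pig, since 7 of the 8 PL pigs lay above every PUL pig, an arrangement shared by 0.12% of the genes tested in LD. PUL averaged 32.4 CPM ± 13.04 (SD, n = 8), and PL averaged 84.2 CPM ± 28.6 (SD, n = 8). The log2 fold change was 1.38 ± 0.26 (SE), or 2.60-fold. CNN1 ranked 2 by p among the genes tested in LD, yet the quasi-likelihood test of edgeR gave an adjusted p of 0.179.

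In S the same gene ran from 15.3 over a median of 33.8 to 62.0 CPM in PUL and from 32.7 over 57.2 to 77.6 CPM in PL. Here the breeds overlapped more, as 3 of the 8 PL values exceeded all PUL values and 7 exceeded the PUL median. Shares over all genes were not computed for these counts, nor for other counts of pigs below that are given without a share. The log2 fold change was 0.70 ± 0.23 (SE), and the adjusted p from edgeR was 0.27. The PL pig with the lowest CNN1 in LD, pig 15, was also the lowest PL pig in S, and PUL pig 2 was the lowest of its breed in both muscles.

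The CNN1 call in LD depended on the test. edgeR's exact test, which called 0.12% of the genes, gave an adjusted p of 0.00201, and DESeq2, which called 0.176%, gave 0.00111. One edgeR fit over both muscles, which called 0.0519%, gave 0.021. That fit had no term for the pig, so it treated both libraries of a pig as independent. Without PUL pigs 1 to 5, with only PUL pigs 13, 16 and 17 against PL, the log2 fold change in LD was 1.40. Leaving out single pigs moved it between 1.22 and 1.54 (adjusted p from 0.0863 to 0.519).

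TAGLN, the gene of transgelin (SM22), is an early marker of smooth muscle. Its level in LD ran from 36.1 over a median of 49.2 to 74.1 CPM in PUL and from 29.7 over 57.3 to 131.9 CPM in PL. In S it ran from 37.2 over 86.9 to 143.6 CPM in PUL and from 42.6 over 78.2 to 125.5 CPM in PL. The breeds overlapped along nearly the whole range in both muscles. The log2 fold changes were 0.28 ± 0.25 (SE) in LD and -0.07 ± 0.25 (SE) in S, the second of which turned to 0.03 when the libraries were scaled by their size alone. Without PL pig 14, the pig at 131.9 CPM, the LD value was 0.03.

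CALD1 encodes caldesmon, which holds myosin off the actin filament and also has a non-muscle form in fibroblasts. In LD it ran from 19.4 over a median of 35.1 to 49.5 CPM in PUL and from 23.1 over 42.0 to 91.0 CPM in PL. In S the range was 21.8 to 59.3 CPM around a median of 47.9 in PUL, and 29.3 to 72.7 CPM around a median of 58.9 in PL, where pig 14 was the lowest by a wide gap. The PL pigs above every PUL pig numbered 3 of 8 in LD and 4 of 8 in S, and how common such counts were among all genes was not computed. The log2 fold changes were 0.50 ± 0.29 (SE, adjusted p = 0.761) in LD and 0.46 ± 0.23 (SE, adjusted p = 0.436) in S.

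SMTN encodes smoothelin, found in contractile smooth muscle. In LD its median was 23.9 CPM for PUL and 27.1 CPM for PL, with ranges of 15.3 to 57.7 and 19.0 to 50.1 CPM. In S the medians were 26.5 and 26.1 CPM, with ranges of 20.003 to 44.9 and 18.3 to 51.0 CPM. The breeds overlapped throughout. The log2 fold changes of -0.04 ± 0.26 (SE) in LD and 0.07 ± 0.23 (SE) in S were both smaller than their errors.

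ACTA2, the alpha actin of vascular smooth muscle, showed no breed difference beyond its error either. Its level ran from 32.6 over a median of 41.6 to 66.9 CPM in LD of PUL and from 27.4 over 50.4 to 71.9 CPM in LD of PL. In S it ran from 28.6 over 54.5 to 91.7 CPM in PUL and from 43.9 over 63.9 to 131.2 CPM in PL. A single PL pig lay above every PUL pig in each muscle, pig 14 in LD and pig 8 in S. The log2 fold change was 0.07 ± 0.20 (SE) in LD and 0.14 ± 0.26 (SE) in S. With library size alone the LD value was -0.06, while the median of all genes moved to -0.18.

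ACTG2, the gamma actin of enteric smooth muscle, was close to the limit of detection, at 1 to 37.3 estimated counts per library. In LD it ran from 0.085 over a median of 0.496 to 1.07 CPM in PUL and from 0.62 over 0.844 to 1.88 CPM in PL. All 8 PL pigs lay above the PUL median there, and 3 lay above every PUL pig. The log2 fold change was 0.98 ± 0.36 (SE, adjusted p = 0.555) in LD and 0.53 ± 0.46 (SE, adjusted p = 0.654) in S. The sequences of ACTA1, ACTA2, ACTC1 and ACTG2 are closely similar, and RSEM divides the reads they share, so the levels of ACTA2 and ACTG2 are uncertain beside the far higher ACTA1.

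LIMK1 was lower in PL by value in both muscles. In S its level ran from 15.6 CPM in pig 1 over a median of 42.1 to 81.5 CPM in pig 3 of PUL, and from 11.9 CPM in pig 9 over 17.6 to 33.3 CPM in pig 14 of PL. Of the 8 PUL pigs, 6 lay above every PL pig, which held for 1.23% of the genes tested in S. PUL averaged 46.1 CPM ± 22.2 (SD, n = 8), and PL averaged 19.2 CPM ± 7.11 (SD, n = 8). The log2 fold change was -1.25 ± 0.29 (SE), a 2.38-fold lower level, for which edgeR gave an adjusted p of 0.195.

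LIMK1 in S was called by edgeR's exact test (adjusted p = 0.0153), which called 0.533% of the genes, and by DESeq2 (adjusted p = 0.0134), which called 0.964%. Leaving out single pigs gave values between -1.41 and -1.09 (edgeR adjusted p from 0.0933 to 0.339), and the fit without PUL pigs 1 to 5 gave -1.07. Over 15 alternative settings of edgeR or DESeq2 the adjusted p ran from 0.0134 to 0.511.

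In LD, LIMK1 ran from 19.6 over a median of 29.0 to 120.2 CPM in PUL and from 8.55 over 20.7 to 58.8 CPM in PL. Most PUL pigs lay within the PL range, and 2 of 8, pigs 5 and 3, lay above it. The log2 fold change was -0.84 ± 0.44 (SE, adjusted p = 0.723). It moved with those pigs: without pig 5 it was -0.45, and without PUL pigs 1 to 5 it was -0.13.

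**Figure D2:**
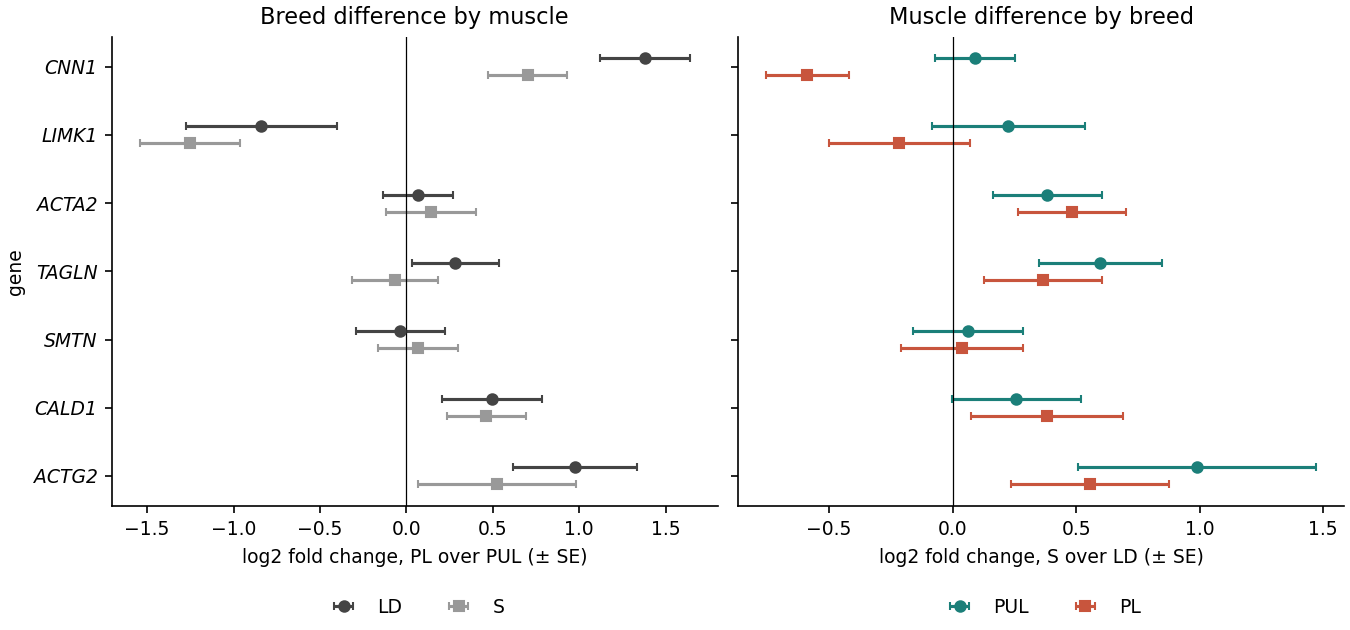
Log2 fold changes of the 7 genes with their SE, at the left PL over PUL in each muscle and at the right S over LD in each breed, where bars crossing 0 mark values smaller than their error. At the left CNN1 (1.38 and 0.70) and LIMK1 (-0.84 and -1.25) lie farthest from 0 on either side, and at the right CNN1 lies below 0 in PL (-0.59) but not in PUL (0.09).

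Markers of other cell types were compared between the breeds, and no gene of these lists was called. All 6 fibroblast markers tested were higher in PL in both muscles by value, with medians of 1.11 in LD and 1.03 in S on the log2 scale, and 3 of them lay at an unadjusted p under 0.05 in each muscle. The 7 fibroblast markers with an ID summed to 257 to 2362 CPM in LD of PUL and 541 to 5503 CPM in LD of PL, and to 116 to 2164 CPM against 1124 to 5449 CPM in S. The 3 red blood cell markers had medians of 1.32 in LD and 1.298 in S, although SLC4A1 was at -0.38 in LD. The mural markers tested had medians of -0.04 and 0.28. Their sum was 389 to 644 CPM in PUL and 270 to 613 CPM in PL in LD, and 339 to 655 CPM and 264 to 551 CPM in S, but SYNPO2 alone made up 84.0% to 96.6% of it. The other 10 mural markers with an ID summed to 19.5 to 40.3 CPM in PUL and 26.1 to 53.2 CPM in PL in LD, and to 21.9 to 52.8 CPM and 34.4 to 65.1 CPM in S, so the breeds overlapped, with higher medians in PL (41.7 against 37.1 CPM in LD and 50.6 against 31.9 CPM in S). The median of 10 endothelial markers was 0.014 in LD and 0.15 in S. Macrophage markers (4 tested) had medians of 0.70 and 0.38 and hepatocyte markers (4 tested) of -1.24 and -1.84, while adipocyte markers had -0.56 (3 tested) and -0.31 (2 tested). The 4 skeletal muscle markers tested had -0.31 and -0.11, and the Schwann cell markers, at 0 to 3.13 CPM in sum, were too low to test. The part of the macrophage markers in the results was not tested.

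With the fibroblast level of each library in the fit, a covariate added after the data were seen, CNN1 was at 1.35 ± 0.29 (SE) in LD and 0.75 ± 0.26 (SE) in S, beside 1.38 and 0.70 without it, and was not called in either. CALD1 changed from 0.50 to -0.13 in LD and from 0.46 to 0.13 in S in the same fits, and LIMK1 from -0.84 to -0.33 in LD and from -1.25 to -1.02 in S. With the red blood cell level in the fit, CNN1 was at 1.28 ± 0.31 (SE) in LD and 0.48 ± 0.27 (SE) in S. With the mural level in the fit, ACTA2 changed from 0.14 to -0.25 and SMTN from 0.07 to -0.23 in S. CNN1 was not called with the mural level in the fit. Over 15 alternative settings, that one among them, CNN1 ran from 1.24 to 1.43 in LD and from 0.48 to 0.91 in S. The adjusted p of edgeR or DESeq2 in these settings ran from 0.00111 to 0.791 in LD and from 0.156 to 0.914 in S.

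CNN1 was also set against the other smooth muscle genes of the same library, a ratio that does not depend on how libraries are scaled. In LD the log2 ratio of CNN1 to ACTA2 counts ran from -1.70 to 0.16 in PUL and from -0.20 to 2.00 in PL, where 6 of the 8 PL values exceeded all PUL values. The difference of the breed means was 1.38 ± 0.35 (SE), with p = 0.00202 in a two-sided exact permutation test over the pigs and 0.0186 after adjustment over 12 ratios. Against TAGLN the difference was 1.24 ± 0.40 (SE), again with 6 of 8 PL values above all of PUL (exact permutation p = 0.00668, adjusted p = 0.0267). Against SMTN it was 1.40 ± 0.40 (SE), again with 6 of 8 (exact permutation p = 0.00311, adjusted p = 0.0186). Over the 32 libraries with group means removed, SMTN varied little with ACTA2 (r = 0.15) or TAGLN (r = 0.05). The breed differences of ACTA2, TAGLN and SMTN themselves were no larger than 0.28 in LD. CNN1 was picked by the study on these pigs, so the tests of its ratios are not independent evidence either.

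The ratio to CALD1, itself higher in PL by value, separated the breeds less in LD. It differed by 1.03 ± 0.43 (SE), and 2 of 8 PL values exceeded all of PUL (exact permutation p = 0.0283, adjusted p = 0.0679). In S none of the ratios passed after adjustment. The differences there were 0.59 ± 0.27 (SE) for ACTA2, 0.78 ± 0.34 (SE) for TAGLN, 0.73 ± 0.28 (SE) for SMTN and 0.24 ± 0.37 (SE) for CALD1, with adjusted exact permutation p of 0.0769, 0.0769, 0.0587 and 0.532. Ratios to MYH11 and MYLK, whose IDs held 0 to 20 counts and may be incomplete, say little of those genes, and differed by 1.70 and 0.997 in LD and by -0.40 and 0.48 in S, with adjusted exact permutation p of 0.0769, 0.346, 0.532 and 0.532.

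**Figure D3:**
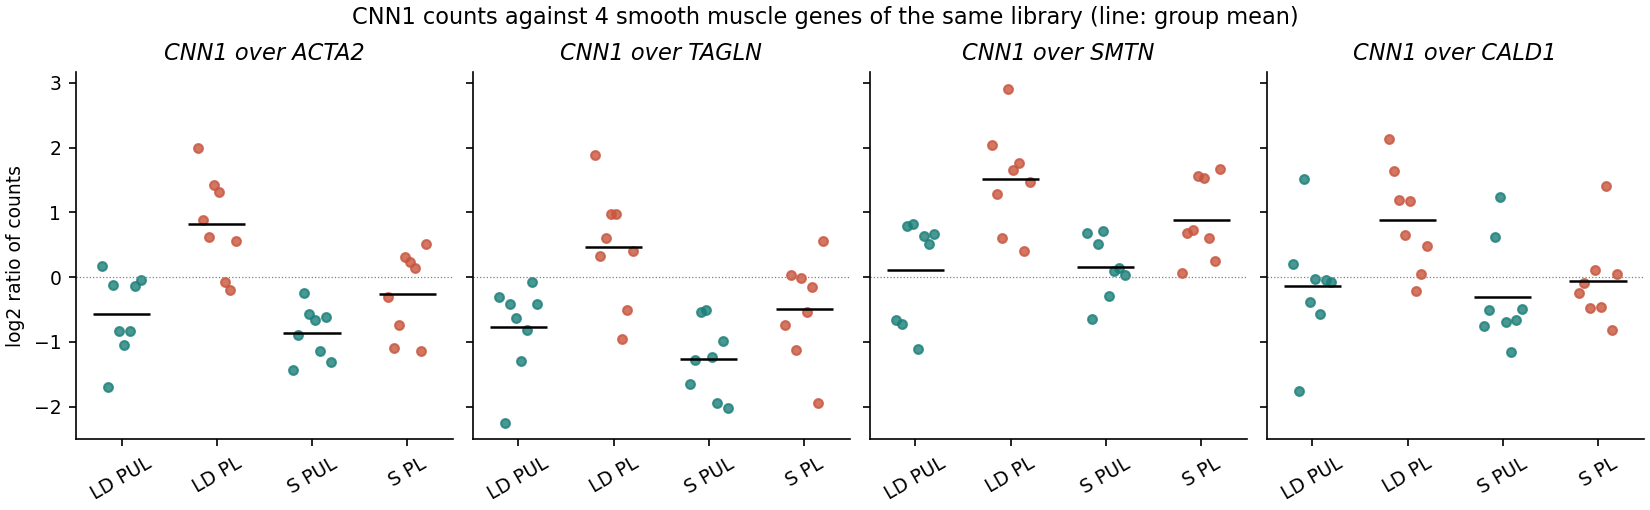
Log2 ratio of CNN1 counts to those of ACTA2, TAGLN, SMTN and CALD1 in the same library, by group, with points for pigs and lines for group means. In LD the PL mean lies 1.03 to 1.40 above the PUL mean in all 4 panels, and in S 0.24 to 0.78 above it.

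Between the muscles of a pig, CNN1 was lower in S than in LD by value in PL, and differed by less than its error in PUL. In PL, 7 of 8 pigs had less CNN1 in S, with pig 14 as the exception, and 2.68% of all genes tested showed a lower level in S in at least 7 PL pigs. The log2 fold change, S over LD within pigs, was -0.59 ± 0.17 (SE) in PL, which ranked 8 by p of 10680 genes, and the adjusted p was 1. Without single pigs it ran from -0.70 to -0.49, with the first value and the lowest adjusted p from edgeR (0.384) in the fit without pig 14. In PUL it was 0.09 ± 0.16 (SE), with 3 of 8 pigs higher in S, and scaling by library size alone turned it to -0.05. The interaction of breed and muscle, which tests whether the breed difference differed between S and LD, was -0.67 ± 0.24 (SE) for CNN1, which ranked 42 by p of 11563 genes (adjusted p = 0.9996), so a different breed effect in the muscles was not shown after adjustment. At an unadjusted p under 0.05 there were 2.54% of all genes in that test.

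ACTA2, ACTG2 and TAGLN leaned the other way, with more transcript in S by value in both breeds. ACTG2 was higher in S in 7 of 8 pigs of each breed, by 0.99 ± 0.48 (SE) in PUL and 0.56 ± 0.32 (SE) in PL. At least 7 of 8 pigs were higher in S for 5.55% of all genes in PUL and for 2.27% in PL. ACTA2 differed by 0.38 ± 0.22 (SE) in PUL and 0.48 ± 0.22 (SE) in PL, in 6 and 5 of 8 pigs. TAGLN differed by 0.60 ± 0.25 (SE) in PUL (adjusted p = 0.565) and 0.37 ± 0.24 (SE) in PL. CALD1 was at 0.26 ± 0.26 (SE) in PUL and 0.38 ± 0.31 (SE) in PL, and SMTN at 0.06 ± 0.22 (SE) and 0.04 ± 0.25 (SE). LIMK1 was at 0.23 ± 0.31 (SE) in PUL and -0.22 ± 0.29 (SE) in PL. No member was called in either breed, beside 7 genes in PUL (0.065%) and 0% in PL. At an unadjusted p under 0.05 there were 8.45% of all genes in PUL, TAGLN among them, and 1.35% in PL, with CNN1 and ACTA2. All 7 members in PUL and 5 of 7 in PL had values above 0, beside 50.5% of all genes in each breed. The median over the members was 0.26 in PUL and 0.37 in PL, beside 0.0028 and 0.0024 over all genes. The interaction of the other 6 genes lay between -0.44 and 0.13, within its error for each of them.

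**Figure D4:**
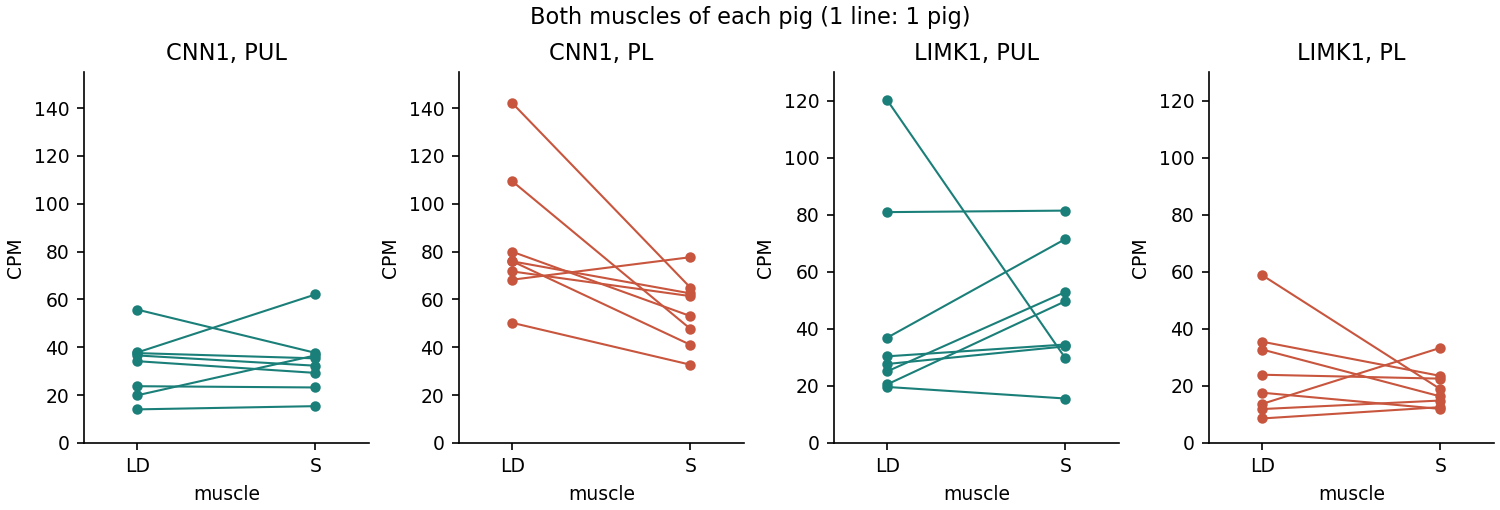
CNN1 and LIMK1 levels in CPM in LD and S, with 1 line for each pig. For CNN1 in PL, 7 of 8 lines fall from LD to S, while the PUL lines run in both directions, and the LIMK1 line that falls most in PUL is that of pig 5, at 120.2 CPM in LD.

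A pig's CNN1 level in LD was compared with its level in S. In PUL the Pearson r was 0.68 (exact permutation p = 0.0622) and Spearman's rho 0.74 (exact permutation p = 0.0458), and r was 0.53 without the 2 pigs farthest from the median. In PL r was 0.38 (exact permutation p = 0.346) and rho 0.12 (exact permutation p = 0.793), and r changed to -0.54 without 2 pigs, so that value rested on them. For LIMK1, r was 0.26 (exact permutation p = 0.519) in PUL and 0.26 (exact permutation p = 0.532) in PL, with rho of 0.31 (exact permutation p = 0.462) and 0.40 (exact permutation p = 0.327), and 0.59 and 0.056 without 2 pigs. After adjustment over these 4 relations the lowest p was 0.249.

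No correlation of CNN1 with genes of the vessel wall passed its test from pig to pig. It was computed with 24 genes, 8 mural, 10 endothelial and the other 6 of the set, over the 16 pigs of a muscle after removal of the breed means. In LD, r ran from -0.26 to 0.17 with a median of -0.06, and 6 of 24 values were positive. In S it ran from -0.33 to 0.50 with a median of 0.15, and 17 of 24 were positive. None of the 48 values had an unadjusted permutation p under 0.05 for r, and the lowest adjusted p was 0.945 in LD and 0.771 in S. The highest values in S were those of KCNJ8, a potassium channel of pericytes (r = 0.50, permutation p = 0.0527, rho = 0.32, permutation p = 0.238, r = 0.20 without 2 pigs), and EGFL7, a secreted protein of endothelium (r = 0.47, permutation p = 0.0923, rho = 0.56, permutation p = 0.0293, r = 0.32 without 2 pigs). With ACTA2, r in S was 0.46 (permutation p = 0.0964, rho = 0.22, permutation p = 0.425), and 0.036 without 2 pigs.

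**Figure D5:**
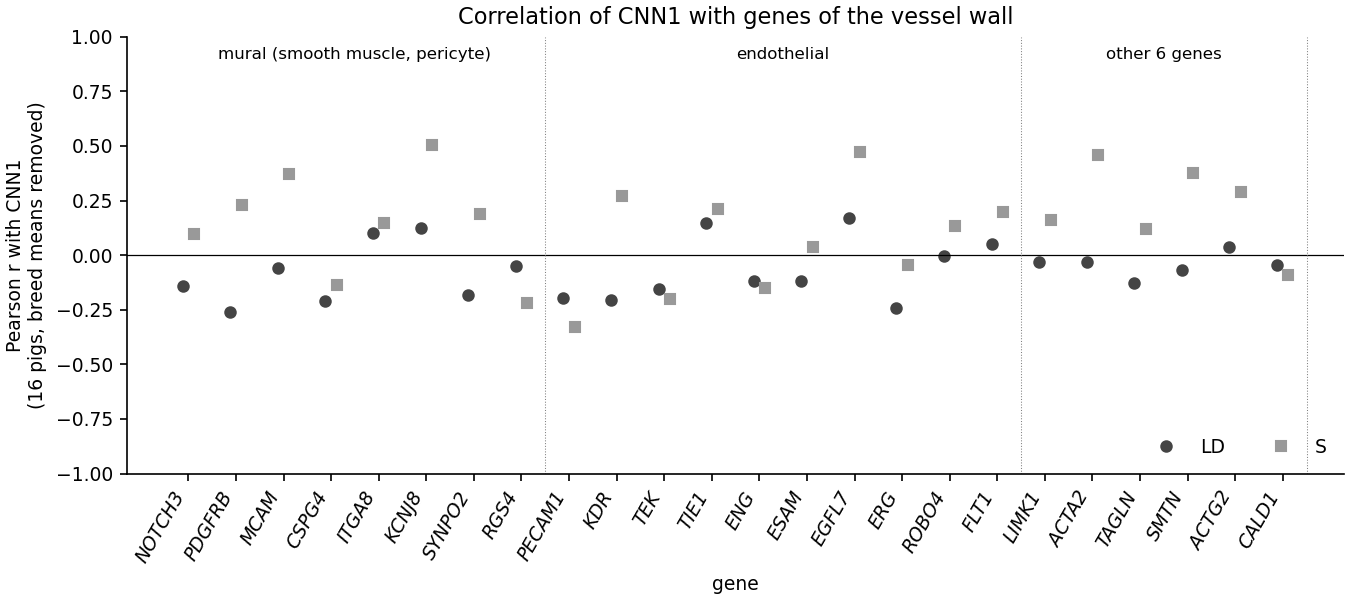
Pearson r of CNN1 with 8 mural genes, 10 endothelial genes and the other 6 of the set over 16 pigs in each muscle, after breed means were removed (vertical axis from -1 to 1). The LD points lie between -0.26 and 0.17 and the S points between -0.33 and 0.50.

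Within single groups of 8 pigs, 4 of 96 correlations had an exact permutation p under 0.05, no more than that threshold allows by chance alone. ITGA8, an integrin of vascular smooth muscle, gave r = 0.95 with CNN1 in LD of PL (exact permutation p = 0.000769, rho = 0.90, exact permutation p = 0.00456, r = 0.81 without 2 pigs), and the adjusted p was 0.0738. In S of PUL, KCNJ8 gave r = 0.79 (rho = 0.55, r = 0.34 without 2 pigs), ACTA2 r = 0.75 (rho = 0.55, 0.22 without 2 pigs) and ITGA8 r = 0.72 (rho = 0.81, 0.47 without 2 pigs), each with an adjusted exact permutation p of 0.764. ITGA8 averaged only 1.07 to 1.71 CPM in the 4 groups, and its r was -0.46 in LD of PUL and -0.11 in S of PL. Group medians of the 24 values were -0.28 in LD of PL, 0.067 in LD of PUL, -0.079 in S of PL and 0.29 in S of PUL.

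The 7 genes did not vary as one set. Over the 32 libraries with the 4 group means removed, ACTA2 varied with ACTG2 (r = 0.75) and with TAGLN (r = 0.71), whereas CNN1 had r between -0.06 and 0.23 with each of the other 6. LIMK1 and CALD1 varied in opposite directions (r = -0.77). These values are descriptions over libraries that share pigs and a leading axis of variation, which took 32.4% of the variance within groups over 10518 genes. LIMK1 (r = 0.72) and SMTN (r = 0.56) went up along that axis and CALD1 (r = -0.70) went down, while CNN1 had r = 0.15. The group means of the axis were between -0.16 and 0.24, and the groups overlapped. With the axis in the fit, CNN1 in LD differed by 1.39 (adjusted p = 0.115) and LIMK1 in S by -1.20 (adjusted p = 0.0843).

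CALD1 went with fibroblast genes and LIMK1 against them. The correlation of CALD1 with 6 fibroblast genes ran from 0.43 to 0.85, that of TAGLN from 0.40 to 0.65, that of SMTN from -0.50 to -0.22 and that of LIMK1 from -0.64 to -0.19, over 32 libraries. For CNN1 it ran from -0.19 to 0.16. Among 4 skeletal muscle genes, the r of CNN1 was 0.58 with ACTA1, 0.38 with MYBPC2, 0.28 with MYBPC1 and -0.26 with MYOD1. This was not particular to CNN1, as LIMK1 ran from -0.12 to 0.66 and SMTN from -0.21 to 0.71 with the same genes. CALD1 ran from -0.61 to 0.06, TAGLN from -0.22 to -0.18, ACTA2 from -0.19 to -0.0005 and ACTG2 from -0.22 to 0.11.

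Of 10517 genes compared, those whose pattern was most like CNN1 were BTBD3 (r = 0.70), ENSSSCG00000001997 (0.66), ENSSSCG00000029199 (0.65), PCBP4 (0.64) and UROS (0.64). For LIMK1 they were FAM20C (r = 0.86), DVL2 (0.85), ENSSSCG00000002995 (0.84), PACSIN3 (0.84) and ANKRD13B (0.83). The 5 neighbours of CNN1 differed between the breeds by at most 0.22 on the log2 scale in either muscle, below their errors or close to them. ENSSSCG00000002995 had the largest difference among the neighbours of LIMK1, at -0.51 ± 0.18 (SE) in S, and was not called (adjusted p = 0.316).

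The wider actin and calponin family, 8 genes tested outside the set, had log2 fold changes above 0 for all 8 in LD (median 0.40) and for 6 of 8 in S (median 0.24), beside 50.8% and 52.6% of all genes, and none was called. In each muscle 2 of the 8 lay at an unadjusted p under 0.05, and both were higher in PL. ACTC1, the cardiac alpha actin, averaged 17.4 CPM ± 9.83 (SD, n = 8) in LD of PUL and 46.5 CPM ± 34.9 (SD, n = 8) in LD of PL. Its log2 fold change was 1.43 ± 0.48 (SE, adjusted p = 0.534) in LD and 0.88 ± 0.42 (SE, adjusted p = 0.423) in S. TPM4, a non-muscle tropomyosin, differed by 0.93 ± 0.40 (SE) in LD and 0.97 ± 0.32 (SE, adjusted p = 0.272) in S. ACTG1, the cytoplasmic gamma actin, was at 0.49 ± 0.28 (SE) and 0.13 ± 0.27 (SE), and ACTA1 at 0.40 ± 0.27 (SE) and -0.05 ± 0.24 (SE).

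Of 17 genes tested around LIM kinase and cofilin, 10 in LD and 12 in S had log2 fold changes above 0, beside 50.8% and 52.6% of all genes, with medians of 0.071 and 0.13, and none was called. PAK1, a kinase that phosphorylates and activates LIMK1, averaged 29.1 CPM ± 14.6 (SD, n = 8) in LD of PUL and 64.6 CPM ± 36.9 (SD, n = 8) in LD of PL. Its log2 fold change was 1.16 ± 0.36 (SE, adjusted p = 0.513) in LD and 0.53 ± 0.26 (SE, adjusted p = 0.435) in S. PAK2, a related kinase with group means of 0.636 to 1.23 CPM, was at -0.01 ± 0.47 (SE) in LD and 0.88 ± 0.37 (SE, adjusted p = 0.382) in S. The actin-severing substrates were also higher in PL by value, DSTN (destrin) by 0.60 ± 0.23 (SE, adjusted p = 0.555) in LD and 0.26 ± 0.25 (SE) in S, and CFL1 (cofilin 1) by 0.54 ± 0.27 (SE) and 0.35 ± 0.20 (SE).

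Of 14 genes tested around serum response factor and TGF-beta, 8 in LD and 11 in S had values above 0, with medians of 0.051 and 0.20, and none was called. TGFB2, a TGF-beta ligand, was at -0.13 ± 0.21 (SE) in LD and 0.56 ± 0.19 (SE, adjusted p = 0.283) in S. Its receptor gene TGFBR2 was at 0.24 ± 0.33 (SE) and 0.41 ± 0.24 (SE). SMAD3, which carries the signal to the nucleus, was at -0.58 ± 0.27 (SE) in LD and 0.03 ± 0.15 (SE) in S, and SMAD7, an inhibitor of the pathway, at 0.09 ± 0.31 (SE) and 0.39 ± 0.24 (SE).

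Of 8 mural genes tested, 4 in LD and 6 in S had values above 0, and none was called. MCAM, an adhesion molecule of vessel walls, was at 0.20 ± 0.20 (SE) in LD and 0.49 ± 0.22 (SE, adjusted p = 0.4) in S, and PDGFRB, the PDGF receptor of pericytes, at 0.67 ± 0.43 (SE) and 0.88 ± 0.45 (SE). KCNJ8 was at 0.50 ± 0.31 (SE) and 0.25 ± 0.28 (SE), and ITGA8 at -0.40 ± 0.41 (SE) and 0.48 ± 0.37 (SE). Of 10 endothelial genes, 5 in LD and 6 in S had values above 0, and none was called. EGFL7 was at 0.14 ± 0.24 (SE) in LD and -0.44 ± 0.18 (SE, adjusted p = 0.382) in S, ERG, an endothelial transcription factor, at 0.46 ± 0.25 (SE) and 0.42 ± 0.24 (SE), KDR, the VEGF receptor 2, at -0.03 ± 0.31 (SE) and 0.42 ± 0.27 (SE), and PECAM1 at 0.16 ± 0.23 (SE) and 0.28 ± 0.18 (SE).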

How the data were processed

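Per the study's methods and labels, ribosomal RNA was removed, libraries were made with the TruSeq v2 kit, and reads were aligned to Sscrofa10.2 with Bowtie2. The authors deposited RSEM expected counts per gene, not normalised, in which reads with several possible origins are divided among genes. Symbols covered 11804 of 25322 IDs.

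Expected counts were rounded and tested in R 4.3.3 with edgeR 4.0.16 (glmQLFit and glmQLFTest, TMM factors, filterByExpr), with SE taken from the F statistic. Breeds were compared within each muscle. Muscle differences and the interaction had the pig as a block, because every gilt gave both muscles. Libraries of one animal had a median r over genes of 0.39 in PUL (0.030 to 0.72) and 0.099 in PL (-0.54 to 0.65). The S library most like an LD library came from the same pig for 3 of 8 pigs in PUL and 1 of 8 in PL. Pigs of different breeds that share only a number reached a median r of 0.33 in LD, so these values did not show the pairing clearly. Levels are CPM with TMM factors over 32 libraries, correlations used log2(CPM + 0.5), and permutation tests ran in SciPy 1.17.1. Alternatives included DESeq2 1.42.0, edgeR's exact test, other scalings, filters, covariates and left-out pigs. Covariates for the leading axis, fibroblast and red blood cell levels were added after the data were seen. The edgeR code was tested on simulated data. Members and lists were chosen with earlier results of these data known. The text names every member, in 5 lists the genes called or, with fewer than 4 called, the 4 smallest p in either muscle, and the 5 closest patterns to CNN1 and LIMK1. Replicates are separate pigs, and no 2 libraries agreed within sampling noise. The isoform table, coordinates and sequences were not used here, and a planned count of promoter motifs was not run.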

Additional observations from a re-analysis of the deposited data

Results flagged for a closer look

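Among 28 groups of 8 pigs, 1 for each gene and group, 3 held a pig set far apart from the rest, with a gap to its neighbour above the critical value of Dixon's ratio. For independent groups of normally distributed values, chance alone would mark about 1 in 20. These groups share pigs and held CPM without a log, so that rate is only a rough guide. ACTA2 in S of PL was at 131.2 CPM in pig 8, where the next pig was at 72.3 CPM. TAGLN in LD of PL was at 131.9 CPM in pig 14, where the next was at 72.2 CPM. CALD1 in S of PL was at 29.3 CPM in pig 14, the lowest, where the next was at 56.4 CPM. Among the PL pigs in S, pig 14 was also the highest in CNN1 (77.6 CPM), LIMK1 (33.3 CPM) and SMTN (51.0 CPM). Among those in LD it was also the highest in ACTA2 (71.9 CPM) and ACTG2 (1.88 CPM).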

How the results depend on the processing

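Each breed comparison called 0 genes. In LD this became 13 with edgeR's exact test, 19 with DESeq2, 4 without the filter, 6 with both muscles in one fit and 1 without PUL pigs 1 to 5. In S it became 57, 103, 4, 70 and 1, and 1 with RLE factors, with the mural or with the hepatocyte covariate, and 2 with the leading axis or the red blood cell covariate. Leaving out single pigs gave 0 to 1 in either muscle. Between muscles, 7 genes in PUL became 112 with DESeq2, 25 without the filter, 3 with at least 10 counts in every library (under which ACTG2 could not be fitted) and 3 to 15 without single pigs, lowest without pig 3 and highest without pig 5; PL gave 2 with DESeq2. CNN1 in LD was called by the exact test (1.38), DESeq2 (1.39) and the fit over both muscles (1.38), and LIMK1 in S by the exact test (-1.25) and DESeq2 (-1.27). The fit over both muscles had no pig term. With the replicate number as a block, CNN1 in LD was at 1.43 (adjusted p = 0.299) and LIMK1 in S at -1.16 (adjusted p = 0.413); the block changed no call, and same-numbered pigs of the breeds share only a number (median r 0.33 in LD and -0.053 in S, best match in 2 and 1 of 8). With 5 counts added to the ratios, those to MYH11 (1.38), MYLK (1.10) and CALD1 (1.02) in LD and SMTN (0.72) in S passed, and that to MYH11 in S turned to 0.23. Signs turned, with no call: in LD, ACTA2 to -0.062 (library size), -0.0020 (axis), -0.15 (fibroblast) and -0.036 (red blood cell), SMTN to 0.029 (replicate block), 0.091 (hepatocyte), 0.053 (axis), 0.28 (fibroblast), 0.095 (red blood cell) and 0.49 (without PUL pigs 1 to 5), and TAGLN to -0.044 and CALD1 to -0.13 (fibroblast); in S, TAGLN to 0.029 (library size), ACTA2 to -0.25, SMTN to -0.23 and ACTG2 to -0.022 (mural), and ACTA2 to -0.37 and SMTN to -0.20 (red blood cell); between muscles in PUL, SMTN to -0.019 (no replicate block) and -0.067 (library size) and CNN1 to -0.049 (library size); in the interaction without the block, SMTN to 0.097 and CALD1 to -0.026. Without single pigs, SMTN ran from -0.19 to 0.17 and ACTA2 from -0.052 to 0.17 in LD, TAGLN from -0.19 to 0.095, SMTN from -0.068 to 0.19 and ACTA2 from -0.060 to 0.24 in S, CNN1 from -0.027 to 0.18 and SMTN from -0.048 to 0.28 between muscles in PUL, and SMTN from -0.14 to 0.19 in PL. The cause of these changes was not tested. At 8 pigs per breed, even differences of several SE were not called across all genes, and ACTG2, MYH11 and MYLK were limited by their counts.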
